A study of Mus musculus with 32 samples.

Results

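The receptors and Smad proteins that carry the TGFβ signal into the cell were examined in mouse quadriceps muscle, as 10 genes of the 53801 listed in the deposited tables: the receptors and co-receptors Tgfbr1, Acvrl1, Tgfbr2, Tgfbr3 and Eng, and the Smads Smad2, Smad3, Smad4, Smad6 and Smad7. Members were taken by gene name, and each name matched 1 gene ID. The series measured RNA by sequencing in wild-type (WT) and Col6a2 -/- mice, and its title concerns the availability of TGFβ in muscle and its control by collagen VI. Col6a2 encodes the α2 chain of collagen VI, which forms part of the matrix around muscle fibres. There were 8 groups of 4 mice, 1 library each: WT females, WT males, Col6a2 -/- females and Col6a2 -/- males, all at 5 weeks of age and again, in other mice, at 25 weeks. The Col6a2 -/- mice were homozygous for the allele Col6a2tm1(KOMP)Vlcg, which came from C57BL/6N and had been crossed to C57BL/6J for 5 generations. WT and Col6a2 -/- animals were offspring of heterozygous parents, so all groups share this mixed C57BL/6 background, and the Col6a2 -/- mice carry the allele in every tissue rather than in muscle alone. RNA came from whole frozen sections of muscle, in which fibres, vessels, fibroblasts and immune cells are mixed.

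TGFβ binds the type II receptor TGFBR2, which recruits and phosphorylates a type I receptor, and the type I receptor then phosphorylates the receptor-activated Smads SMAD2 and SMAD3. These join the common partner SMAD4 and enter the nucleus, where they regulate target genes, while the inhibitory SMAD6 and SMAD7 act against the receptors and are themselves induced by the pathway. The co-receptors betaglycan (Tgfbr3) and endoglin (Eng) present ligand to the signalling receptors, and ALK1 (Acvrl1) is a second type I receptor, best known in endothelial cells, that with endoglin responds to BMP9 and BMP10 through a different set of Smads. In skeletal muscle, TGFβ is known as a brake on the differentiation of muscle precursors and as a driver of fibrosis.

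The receptor genes lie on several chromosomes of the mouse genome (build GRCm38): Tgfbr1 (ENSMUSG00000007613) at chr4:47353222-47414931 on the plus strand, Acvrl1 (ENSMUSG00000000530) at chr15:101128522-101145336 on the plus strand, Eng (ENSMUSG00000026814) at chr2:32646595-32682669 on the plus strand, Tgfbr2 (ENSMUSG00000032440) at chr9:116084293-116175360 and Tgfbr3 (ENSMUSG00000029287) at chr5:107106570-107289629, both on the minus strand. RefSeq promoter entries matched 5 of the 10 members. Promoters are shown for Tgfbr1 and Eng because both genes passed the test between genotypes at 5 weeks, described further on, and RefSeq (GRCm38.p6) places a transcript start at the first base of each gene. The 250 bases before that start are given 5′ to 3′ in the direction of the gene, at chr4:47352972-47353221 for Tgfbr1 and chr2:32646345-32646594 for Eng. Capitals mark GGGCGG, the core of the GC box that Sp1 can bind, in Tgfbr1, and GGAAG or its reverse complement CTTCC, which hold the core of ETS factor sites, in Eng.
Tgfbr1: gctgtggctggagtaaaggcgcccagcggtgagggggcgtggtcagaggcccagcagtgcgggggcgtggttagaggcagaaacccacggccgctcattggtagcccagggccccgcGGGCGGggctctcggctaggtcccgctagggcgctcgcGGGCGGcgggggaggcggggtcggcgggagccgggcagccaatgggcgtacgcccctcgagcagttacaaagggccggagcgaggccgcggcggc
Eng: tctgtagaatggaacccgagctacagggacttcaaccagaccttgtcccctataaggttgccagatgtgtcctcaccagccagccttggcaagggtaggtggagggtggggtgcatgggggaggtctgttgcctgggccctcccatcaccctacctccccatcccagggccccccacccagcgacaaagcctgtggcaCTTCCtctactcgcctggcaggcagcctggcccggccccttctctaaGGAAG
Both strands were searched, and the 2 motifs do not overlap in these windows. The Tgfbr1 window holds 2 copies of GGGCGG and none of GGAAG, and its GC content is 74.8%. RefSeq also has a Tgfbr1 start 32994 bases downstream, whose window holds 0 copies of GGGCGG and 3 of GGAAG, with 52.8% GC. The Eng window holds 2 copies of GGAAG, 1 on each strand, and none of GGGCGG, with a GC content of 62.4%. Of 32817 RefSeq promoter windows of the same length, 32.7% hold GGGCGG and 64.1% hold GGAAG, and the median GC content is 52.4%, so neither motif is rare. The matches are a description of these letters only.

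Levels are given in TPM (a transcript measure scaled for length and to the same total in every library), as computed by the authors, with the SD over libraries. Col6a2 checked the genotype labels. WT libraries had 19.9 to 51.2 TPM at 5 weeks and 6.60 to 13.6 at 25 weeks, all Col6a2 -/- libraries were at or below 0.171 TPM, and the two-sided exact permutation p, 8 against 8, was 0.000155 at both ages, which is the smallest value 12870 splits allow. Mitochondrial genes took 31.9% to 46.9% and the Rn7s genes 20.8% to 30.5% of each library's TPM, between 10399 and 12877 genes reached 1 TPM, and relative depth, inferred from coverage over FPKM, ranged from 6.77 to 13.7. The myofibre markers summed to 30402 TPM or more in every library. Of the 5-week Col6a2 -/- mice, female 2 stood highest on the first principal component (58.6, against -9.68 for female 4 of the same group), and these libraries are named beside the results they touch.

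Averaged over all 32 libraries, Smad3 and Smad4 were the most abundant of the 10 genes, but in both 5-week Col6a2 -/- groups Tgfbr1 had a higher mean than Smad4 (10.04 against 9.80 TPM in females and 11.57 against 10.67 in males). Smad3 averaged 11.3 ± 1.51 TPM and Smad4 9.82 ± 1.18 over the 32 libraries (SD). The receptors Tgfbr1, Tgfbr3 and Tgfbr2 followed with 7.70 ± 2.503, 7.68 ± 1.76 and 7.59 ± 2.36 TPM. Tgfbr1 exceeded Tgfbr3 in 14 of 32 libraries and Tgfbr3 exceeded Tgfbr2 in 19, so the order among these 3 does not rise above their spread. Smad3 exceeded Smad4 in 27 of 32 libraries, and their mean difference over all 32 was 1.52 TPM with an SD of 1.61. Endoglin followed at 5.55 ± 1.34 TPM, Acvrl1 at 4.4997 ± 1.26 and Smad2 at 3.57 ± 0.604. The inhibitory Smads were the lowest, with 1.18 ± 0.281 TPM for Smad7 and 0.921 ± 0.228 for Smad6. Smad7 reached 1 TPM in 23 libraries and Smad6 in 11, and all 10 genes passed the filter for testing (at least 1 TPM in at least 4 libraries). Smad3 RNA exceeded Smad2 RNA in 32 of 32 libraries, by a ratio of 2.33 to 5.37. The coefficient of variation over all libraries was 22.9% to 32.5% for the 5 receptors and 12.0% to 24.8% for the 5 Smads, with Smad6 and Smad7 within the range of the receptors. By group means, 8 of the 10 genes were highest in 5-week Col6a2 -/- males and 6 were lowest in 25-week WT males. This was not counted over all genes, so whether it is particular to the 10 was not tested.

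**Figure D1:**
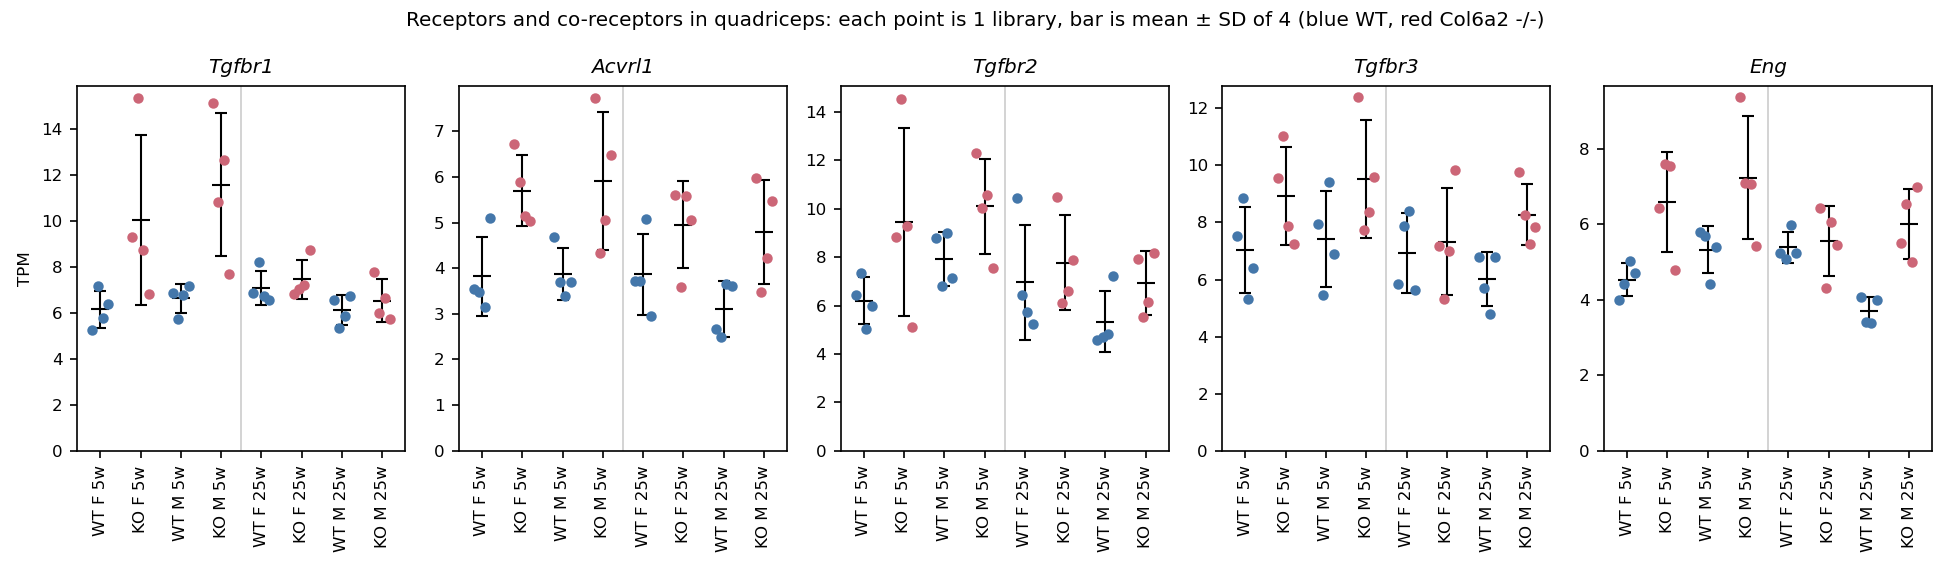
TPM (vertical axes, from 0) of the 5 receptor genes in each of the 32 libraries, by genotype (KO is Col6a2 -/-), sex (F, M) and age. Points are libraries and bars are means ± SD of 4. Tgfbr1 lies between 5.24 and 8.20 TPM in all WT libraries and reaches 15.4 in 5-week Col6a2 -/- mice.

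At 5 weeks, the RNA of 3 receptor genes was higher in Col6a2 -/- than in WT quadriceps, and no Smad gene passed the test. The genes were Tgfbr1, the type I receptor for TGFβ, Acvrl1, and Eng. Changes of the 5 receptor genes ran from 0.316 to 0.635 and those of the 5 Smad genes from 0.049 to 0.145. Changes are differences of log2(TPM + 1), Col6a2 -/- minus WT, averaged over the sexes, from 1 limma fit to all 32 libraries. A gene is called when its Benjamini-Hochberg adjusted p over all 12817 genes tested is under 0.05. Of all genes tested, 25.4% were called in this comparison and 23.2% were called higher and 2.14% lower, so 3 higher of 10 members is near the background. The median change of all genes was 0.145, against a median of 0.230 over the 10 members, 0.403 over the receptors and 0.091 over the Smads.

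The 5-week values of Tgfbr1 separated the genotypes except at the edge. WT females had 5.24, 7.16, 5.79 and 6.37 TPM (replicates 1 to 4) and WT males 6.85, 5.72, 6.79 and 7.15. Col6a2 -/- females had 9.29, 15.4, 8.72 and 6.81 TPM and Col6a2 -/- males 15.1, 10.8, 12.6 and 7.69. Replicate 4 of each sex was the lowest Col6a2 -/- library, and 1 of the 8, female 4, fell within the WT range. The mean was 6.385 ± 0.723 TPM for WT and 10.8 ± 3.27 TPM for Col6a2 -/- mice (n = 8 each, SD), a log2 difference of 0.64 with SE 0.118 (adjusted p 0.000258 by limma), with 8 of 8 libraries above the mean of WT animals of their sex. This is 0.49 above the median change of all genes. Of these Col6a2 -/- libraries, female 2, male 1 and male 3 had the highest Tgfbr1. They also had the most genes at 1 TPM (12877, 12610 and 12405). Female 4, with the lowest Tgfbr1, had the fewest (10903), and this link was not tested.

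Acvrl1 showed a smaller rise with some overlap. WT females had 3.54, 3.48, 3.15 and 5.10 TPM and WT males 4.68, 3.70, 3.39 and 3.70. Col6a2 -/- females had 6.72, 5.90, 5.14 and 5.03 TPM and Col6a2 -/- males 7.73, 4.32, 5.06 and 6.48. WT female 4 and WT male 1 were high for their genotype and Col6a2 -/- male 2 was low for its own. The means rose from 3.84 ± 0.679 to 5.80 ± 1.12 TPM (n = 8 mice each, SD), a log2 difference of 0.48 with SE 0.118 (adjusted p 0.00373 by limma) in 8 of 8 libraries.

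Eng, an endothelial co-receptor that works with ALK1, also rose. WT females had 3.99, 4.42, 5.03 and 4.71 TPM and WT males 5.80, 5.70, 4.42 and 5.41. Col6a2 -/- females had 6.43, 7.61, 7.56 and 4.78 TPM and Col6a2 -/- males 9.37, 7.10, 7.06 and 5.42. In each sex the fourth Col6a2 -/- library lay within the WT range and the others lay above it. The means were 4.93 ± 0.660 and 6.92 ± 1.41 TPM (n = 8 mice each, SD), a log2 difference of 0.40 with SE 0.0958 (adjusted p 0.00310 by limma) in 8 of 8 libraries. The calls of Tgfbr1, Acvrl1 and Eng at 5 weeks held in the 32 fits that each left out 1 library and in the 13 other alternatives run, with changes of 0.478 to 0.717 for Tgfbr1, 0.311 to 0.576 for Acvrl1 and 0.232 to 0.466 for Eng.

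Tgfbr2 and Tgfbr3 were close to the threshold at 5 weeks. Tgfbr2, the receptor that binds TGFβ first, had 5.01 to 8.99 TPM in WT (median 6.97) and 5.13 to 14.5 TPM in Col6a2 -/- (median 9.66), a log2 difference of 0.39 with SE 0.152 (adjusted p 0.0586 by limma) with 6 of 8 libraries above the WT mean of their sex. Tgfbr3, the co-receptor betaglycan, had 5.33 to 9.41 TPM in WT and 7.25 to 12.4 in Col6a2 -/-, a log2 difference of 0.32 with SE 0.124 (adjusted p 0.0604 by limma) with 8 of 8 above. Female 2 was the highest Col6a2 -/- library for Tgfbr2 and male 1 for Tgfbr3. Without Col6a2 -/- female 4, 6 members were called rather than 3, since Tgfbr2 (0.50, limma adjusted p 0.00609), Tgfbr3 (0.36, 0.0294) and Smad7 (0.17, 0.0478) joined, while the number of called genes over all 12813 then tested went from 3253 to 4749. Tgfbr2 was also called without WT female 1 of 25 weeks or Col6a2 -/- male 4 of 5 weeks, and Tgfbr3 without WT female 2, WT male 3 or Col6a2 -/- male 2 of 5 weeks, with adjusted p of 0.0289 to 0.0446. Array weights called both (0.0166 for Tgfbr2 and 0.0464 for Tgfbr3). Tgfbr2 was also called without mitochondrial and Rn7s genes (0.0461) and without Col6a2 -/- females 2 and 4 together (0.0387). Leaving out these females together was an alternative chosen after seeing the data, here and in the later results.

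**Figure D2:**
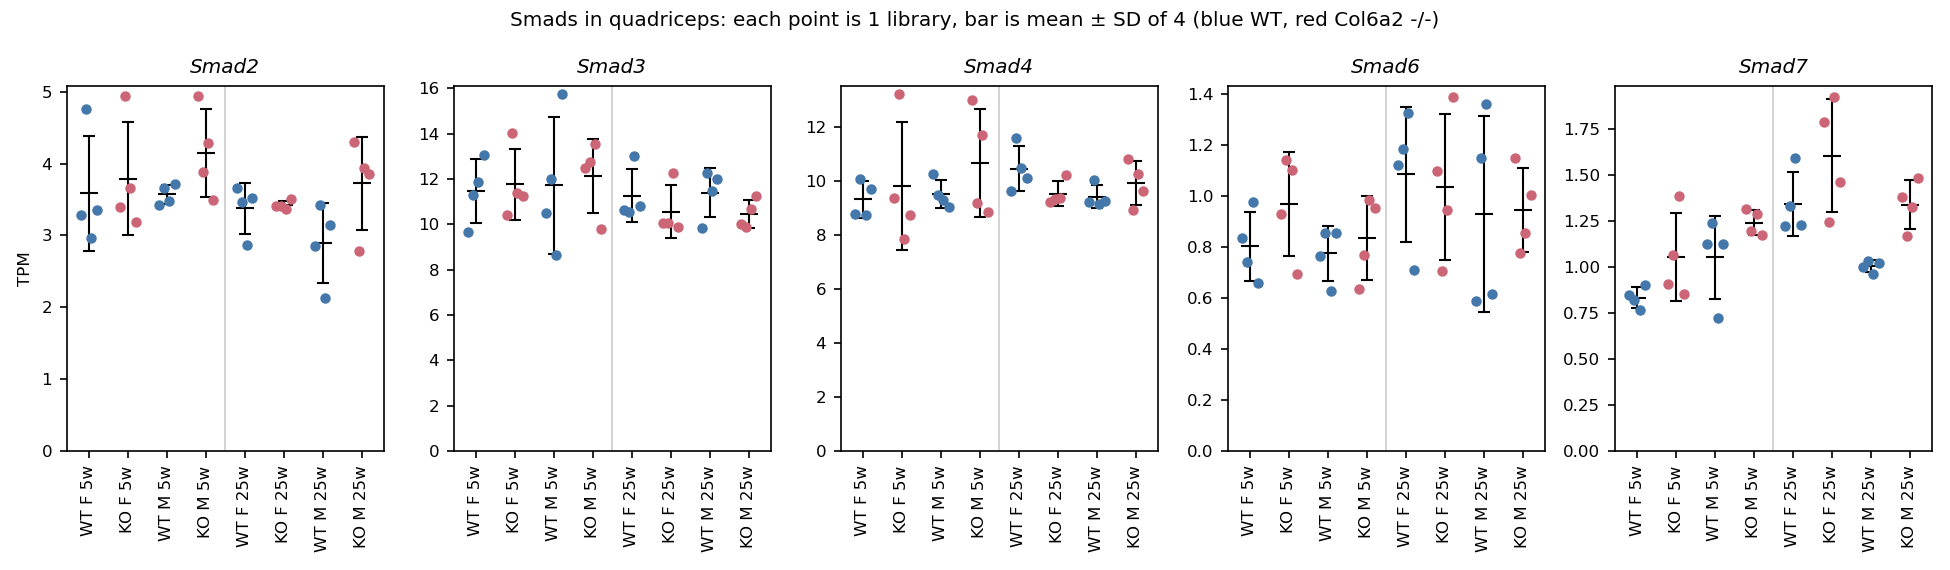
TPM (vertical axes, from 0) of the 5 Smad genes in each of the 32 libraries, with groups, points and bars as in the plot of the receptors. The genotypes overlap at 5 weeks for each Smad. For Smad7 at 25 weeks, the 4 Col6a2 -/- males (1.17 to 1.48 TPM) lie above the 4 WT males (0.960 to 1.03).

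No Smad gene passed the test between genotypes at 5 weeks. For Smad2, WT mice averaged 3.58 ± 0.533 TPM and Col6a2 -/- mice 3.97 ± 0.682 (n = 8 each, SD), Smad3 11.6 ± 2.18 and 12.0 ± 1.49, and Smad4 9.41 ± 0.575 and 10.2 ± 2.08. Their changes were 0.12 (95% interval -0.07 to 0.30), 0.05 (-0.14 to 0.24) and 0.09 (-0.08 to 0.26), so changes as large as the 0.40 of Eng lie outside all 3 intervals. Smad6 had 0.788 ± 0.114 and 0.900 ± 0.185 TPM, a change of 0.09 (-0.10 to 0.27). The limma adjusted p of these 4 genes was 0.345 to 0.715. Smad7, the inhibitory Smad that TGFβ itself induces, was 0.942 ± 0.192 TPM in WT and 1.15 ± 0.192 in Col6a2 -/-, a log2 difference of 0.15 with SE 0.0658 (adjusted p 0.103 by limma), equal to the median of all genes, in 8 of 8 libraries. Because the scale adds 1 to each TPM value, it understates the changes of Smad6 and Smad7, which lie near 1 TPM.

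**Figure D3:**
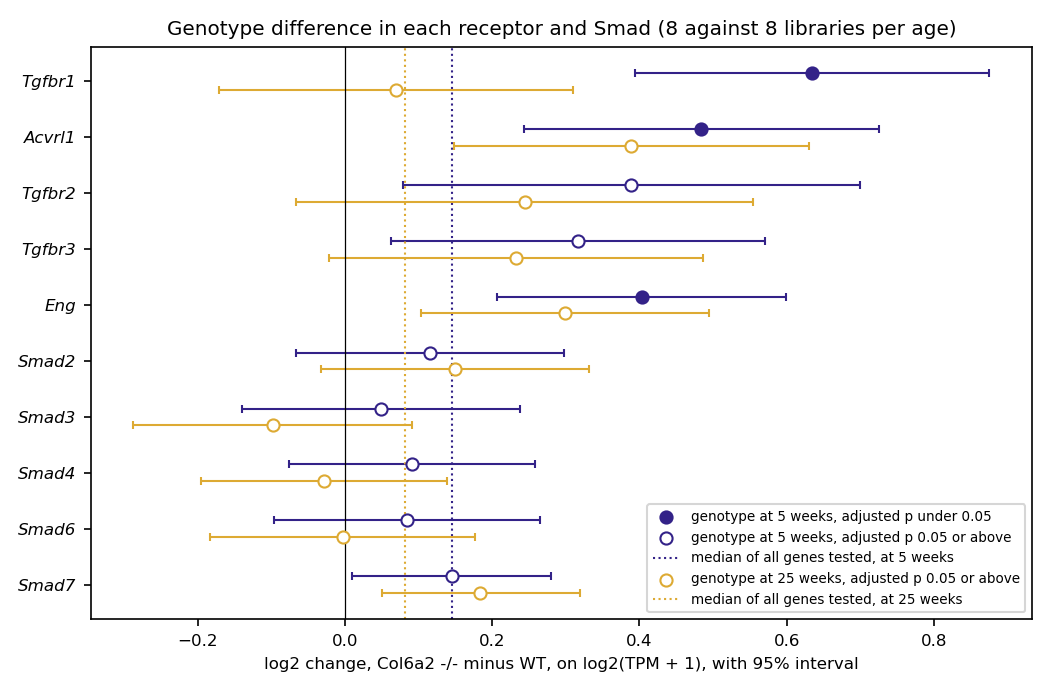
Genotype change of each gene on the log2(TPM + 1) scale (horizontal axis, Col6a2 -/- minus WT, points with 95% intervals) at 5 and 25 weeks. Filled points have an adjusted p under 0.05, the dotted lines are the medians of all genes tested (0.145 and 0.0823), and the solid line is 0. Tgfbr1, Acvrl1 and Eng at 5 weeks are the only filled points.

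Since TPM sets the total of each library to the same value, genes compete for it, and other scalings were compared. Scaling by median-of-ratios size factors lowered the median change of all genes at 5 weeks from 0.145 to 0.0248, and quantile normalization lowered it to -0.0249. The higher share of all called genes went from 91.6% to 60.4% and 45.8% at 5 weeks, and from 95.02% to 69.3% and 56.96% at 25 weeks. It was 69.7% and 80.7% without the 100 most abundant genes. All 5 receptors kept positive changes at 5 weeks under each of these scalings, and Tgfbr1, Acvrl1 and Eng kept their calls. Smad3 and Smad4 turned negative under each of these 3 scalings, Smad2 under median-of-ratios and quantile scaling, and Smad6 and Smad7 under quantile normalization, where none of the 5 Smads was called. Without the 100 most abundant genes, the median change of all genes at 5 weeks was 0.061. As deposited, 80.05% of all genes tested had a positive change at 5 weeks. Reversals among other genes were not counted. Whether the reversals of the Smads, or the signs that the receptors kept, are particular to them was not tested.

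**Figure D4:**
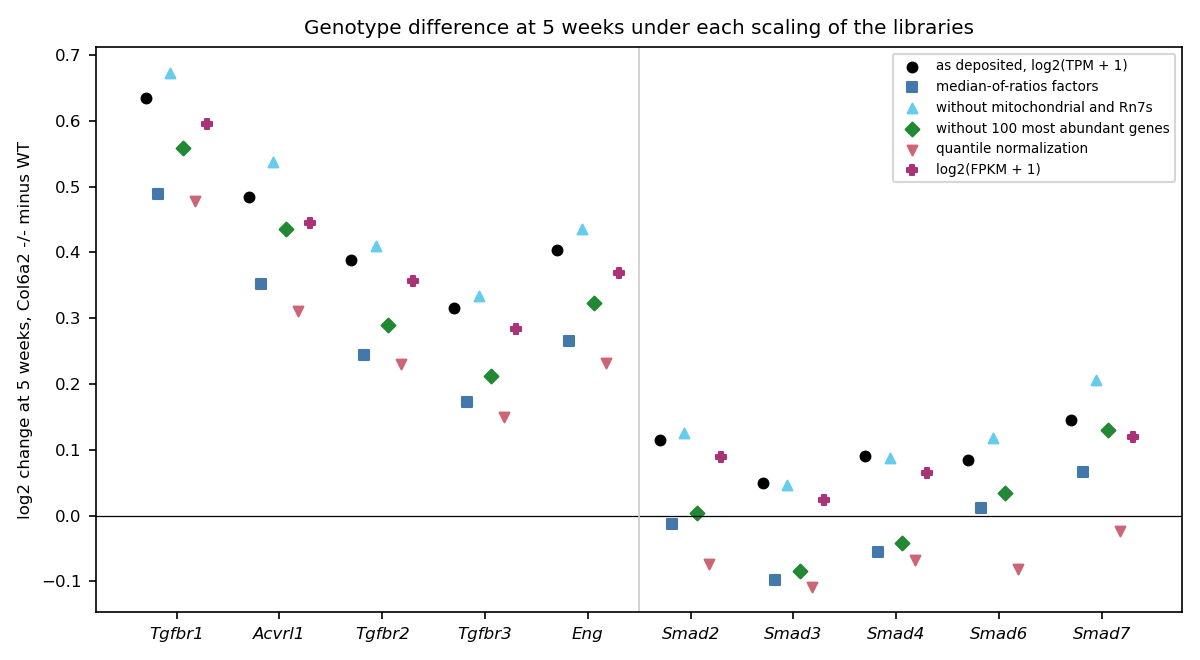
Genotype change at 5 weeks of each gene (vertical axis, Col6a2 -/- minus WT, log2 scale) under 6 ways to scale the libraries, receptors left of the grey line and Smads right of it. Every receptor point is above 0 and Smad points fall on both sides. Smad6 has no point for FPKM, where it missed the filter.

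Ratios between genes of 1 library do not depend on a scaling by 1 factor per library. The summed TPM of the 5 receptors over that of the 5 Smads at 5 weeks was 1.13 ± 0.171 in the WT and 1.4997 ± 0.176 in the Col6a2 -/- mice (n = 8 each, SD), and 1.03 ± 0.140 and 1.25 ± 0.137 at 25 weeks. At both ages the genotypes overlapped: at 5 weeks WT libraries ran from 0.961 to 1.45 and Col6a2 -/- libraries from 1.17 to 1.76. For Tgfbr1 over Smad4, WT libraries of 5 weeks lay between 0.599 and 0.792. The 8 Col6a2 -/- libraries lay between 0.779 and 1.18, with female 4 alone inside the WT range. At 25 weeks the ratio was 0.666 ± 0.0644 in WT and 0.719 ± 0.0812 in Col6a2 -/-. Eng over Acvrl1, by genotype and age, had means from 1.22 to 1.33 and SDs from 0.223 to 0.287.

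**Figure D5:**
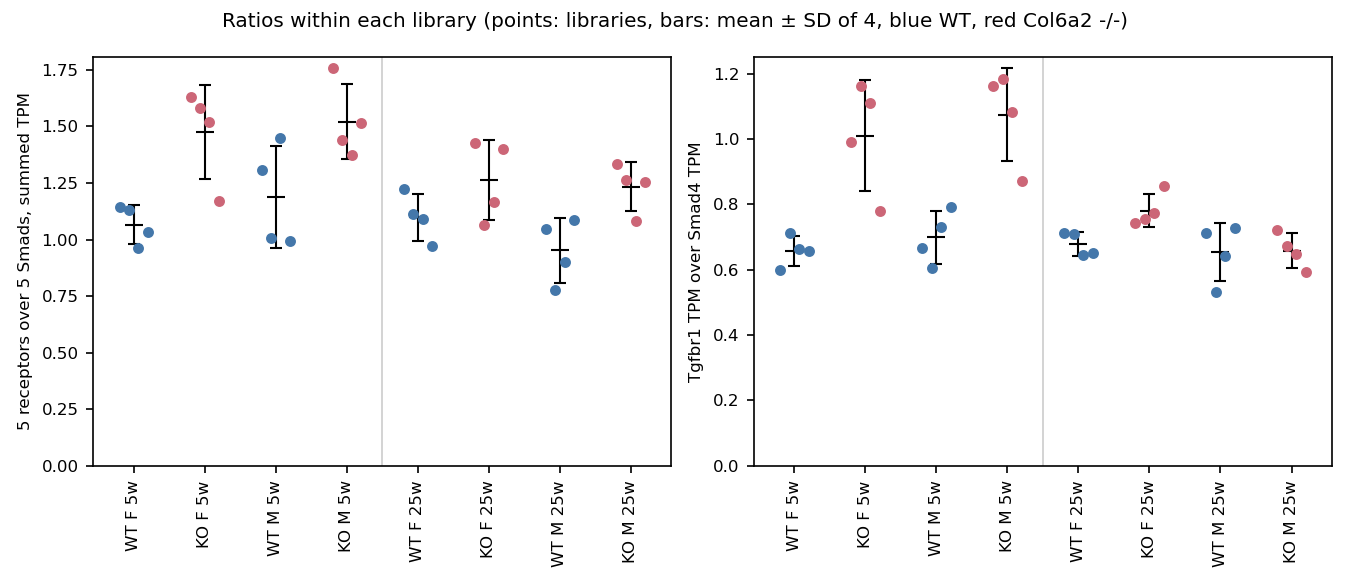
Ratios within each library, by group: summed TPM of 5 receptors over 5 Smads (left) and Tgfbr1 over Smad4 (right), on axes that start at 0. Points are libraries and bars are means ± SD of 4. In 5-week Col6a2 -/- mice, Tgfbr1 over Smad4 reaches 1.18, and in all other groups it stays at or below 0.854.

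At 25 weeks, no member was called between genotypes by limma, where 4.7% of all genes were called. An unadjusted p under 0.05 was found for 3 of 10 members and 19.3% of all genes. Acvrl1 was nearest to the threshold. WT females had 3.71, 3.71, 5.08 and 2.96 TPM and WT males 2.67, 2.502, 3.65 and 3.60. Col6a2 -/- females had 5.60, 3.59, 5.58 and 5.05 TPM and Col6a2 -/- males 5.98, 3.47, 4.23 and 5.46. WT female 3 lay above 4 of the 8 Col6a2 -/- libraries, and the second Col6a2 -/- library of each sex lay within the WT range. The change was 0.39 (SE 0.118 with adjusted p 0.0517 by limma), from 3.49 ± 0.812 to 4.87 ± 0.976 TPM (SD, n = 8), with 7 of 8 libraries above the WT mean of their sex. Its adjusted p was 0.0171 to 0.136 over all alternatives, and under 0.05 in 5 of 13 alternatives and in 9 of 32 fits without 1 library. These left out, at 5 weeks, WT female 4, Col6a2 -/- female 2 or 4 or Col6a2 -/- male 1 or 2, and at 25 weeks, WT female 3, WT male 4, Col6a2 -/- female 2 or Col6a2 -/- male 2, with changes of 0.39 to 0.45 and adjusted p of 0.0234 to 0.0476. By sex, the 25-week change of Acvrl1 was 0.29 in females and 0.485 in males (male limma adjusted p 0.103), and neither was called. The male change was called with array weights (0.47, adjusted p 0.0331) and without Col6a2 -/- male 2 of 25 weeks (0.60, 0.0429).

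Eng at 25 weeks changed by 0.30 (SE 0.0958 with adjusted p 0.0688 by limma), with a low female and a larger male difference. WT females had 5.25, 5.07, 5.98 and 5.25 TPM and Col6a2 -/- females 6.43, 4.32, 6.07 and 5.46. WT males had 4.07, 3.41, 3.38 and 3.9975 TPM and Col6a2 -/- males 5.51, 6.54, 5.00 and 6.99. The pooled difference was called in 5 of 32 fits, without Col6a2 -/- female 2 or 4 or male 1 or 4 of 5 weeks or Col6a2 -/- female 2 of 25 weeks (0.30 to 0.35, adjusted p 0.0328 to 0.0487). It was also called with array weights (0.29, adjusted p 0.0126), with only the compared groups (0.30, 0.0307) and without 5-week Col6a2 -/- females 2 and 4 together (0.30, 0.0294). The female groups overlapped throughout, and the male groups did not overlap, which was so for 13.9% of all genes in the same direction. In males the change was 0.57 (SE 0.135 with adjusted p 0.0218 by limma), the sole member among the 3.03% of genes called there (2.91% higher). These 388 genes became 55 without Col6a2 -/- male 1 of 25 weeks and 816 without Col6a2 -/- female 2 of 5 weeks. The male call was lost without WT male 2 or 3 or Col6a2 -/- male 1 or 4, with changes of 0.50 to 0.60 and adjusted p of 0.0652 to 0.0896, and also without a filter (0.0537), without mitochondrial and Rn7s genes (0.0525) and with quantile normalization (0.0635). In females the change was 0.03 (95% interval -0.25 to 0.31), and 0.0078% of all genes were called. The difference between the sexes at 25 weeks, a contrast added after seeing the data, was 0.54 (SE 0.192, unadjusted p 0.00908 and adjusted p 0.991 in limma), so it did not pass the test.

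Among the remaining receptors at 25 weeks, Tgfbr1 averaged 6.61 ± 0.826 TPM in the WT mice and 6.99 ± 0.961 in the Col6a2 -/- mice (n = 8 each, SD). Its change was 0.07 (95% interval -0.17 to 0.31, limma adjusted p 0.790), with 4 of 8 libraries above the WT mean of their sex, and it turned to -0.01 and -0.02 under median-of-ratios and quantile scaling. Tgfbr2 changed by 0.24 (limma adjusted p 0.391) and Tgfbr3 by 0.23 (0.307). The Smad changes at this age were 0.18 for Smad7, 0.15 for Smad2, -0.003 for Smad6, -0.03 for Smad4 and -0.10 for Smad3, with limma adjusted p from 0.106 to 0.991. Array weights called Smad7 (0.20, adjusted p 0.0227) and, in males alone, Smad2 (0.33, 0.0271). In males alone, Tgfbr3 (4.81 to 6.79 TPM in WT, 7.24 to 9.75 in Col6a2 -/-) and Smad7 also had groups that did not overlap, at changes of 0.41 and 0.22 and limma adjusted p of 0.191 and 0.182, where 13.9% of all genes did not overlap in this direction.

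The genotype change of Tgfbr1 was 0.57 lower at 25 than at 5 weeks (interaction -0.565, SE 0.166, unadjusted p 0.00201, adjusted p 0.175 in limma) and was not called. Of all genes, 0.492% were called in this comparison, and these 63 genes became 229 without replicate 4 of the 5-week Col6a2 -/- females. It was called with median-of-ratios factors (-0.50, adjusted p 0.00642), without the 100 most abundant genes (-0.557, 0.0168), with quantile normalization (-0.50, 0.00611) and with array weights (-0.535, 0.0086). It was also called without replicate 4 of the 5-week Col6a2 -/- females (-0.64, 0.0274) or of the 5-week males (-0.65, 0.0424). The other 9 members had interactions of -0.15 to 0.04 and adjusted p of at least 0.950. The interaction of genotype with sex over both ages gave 0 members by limma, with 0 at an unadjusted p under 0.05, where 0.0156% of all genes were called.

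With age, Tgfbr1 fell in Col6a2 -/- muscle by 0.52 on the log2 scale (SE 0.118 with adjusted p 0.0011 by limma), and all 8 libraries of 25 weeks lay below the 5-week mean of their sex. Its call held in the 13 other alternatives and 32 fits without 1 library. In WT muscle Tgfbr1 changed by 0.04 (95% interval -0.20 to 0.28) with age. The 2 age comparisons and the genotype comparisons share libraries, so these values are not independent of the 5-week result. Smad7 rose with age in Col6a2 -/- by 0.20 (SE 0.0658 with adjusted p 0.0190 by limma), from 1.15 ± 0.192 to 1.47 ± 0.261 TPM in 7 of 8 libraries. It lost the call without Col6a2 -/- female 3 of 25 weeks (0.17, adjusted p 0.0524), without 5-week females 2 and 4 together (0.17, 0.0676), and in the fit on the compared groups alone (0.20, 0.0777). Its change in WT was 0.16 (limma adjusted p 0.0827), and 6 of 12 alternatives called it there. Against these 2 of 10 members, 34.2% of all genes were called with age in Col6a2 -/-, 28.8% lower and 5.41% higher, and 19.8% in WT, where 0 members were called by limma and 1, Smad7, had an unadjusted p under 0.05. In Col6a2 -/-, Eng was also called lower with array weights (-0.25, limma adjusted p 0.0237) or without 5-week females 2 and 4 together (-0.26, 0.0461). It was called without 5-week Col6a2 -/- female 4 (0.0168) or male 4 (0.0244) as well. Tgfbr2 was called lower with array weights (-0.38, 0.0224) or without 5-week Col6a2 -/- female 4, male 4 or 25-week female 1 (0.00976 to 0.0417). Quantile normalization called Smad6 higher (0.23, 0.0413). The higher share of all genes called with age in Col6a2 -/- was 15.8%, against 39.8% with median-of-ratios factors and 53.2% with quantile normalization. In WT it was 22.6%, against 39.3% and 51.4%. Of the sexes, males and females differed in 0 members by limma, also with 0 at an unadjusted p under 0.05, and in 3.05% of all genes.

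Within 5-week females, Tgfbr1 (0.58, SE 0.166, limma adjusted p 0.0224) and Eng (0.44, SE 0.135, 0.0315) were called, where 12.9% of all genes were called and 12.3% were higher. Acvrl1 changed more than Eng there, by 0.48 (SE 0.166 with adjusted p 0.0529 by limma), and was not called. It was called with array weights (0.51, adjusted p 0.025) and in 8 fits without 1 library (0.48 to 0.60, 0.0267 to 0.0488), which left out WT female 4, Col6a2 -/- female 4 or Col6a2 -/- male 1 or 2 of 5 weeks, or WT female 3, Col6a2 -/- female 2 or Col6a2 -/- male 1 or 2 of 25 weeks. Tgfbr2 (0.47, limma adjusted p 0.142) was called in females with array weights (0.49, 0.0474) or without Col6a2 -/- female 4 (0.70, 0.0114). The 12.9%, 1648 genes, became 455 without Col6a2 -/- female 2 and 3865 without Col6a2 -/- female 4. Within 5-week males, Tgfbr1 alone was called (0.69, SE 0.166, limma adjusted p 0.0109), where 5.03% of all genes were called and 4.55% were higher, and its male groups did not overlap, as in 9.32% of genes in that direction. In males Acvrl1 (0.48, limma adjusted p 0.0914) was called without mitochondrial and Rn7s genes (0.63, 0.0414) or without Col6a2 -/- male 2 (0.60, 0.0445), and Eng (0.36, 0.121) without mitochondrial and Rn7s genes (0.48, 0.0359) or without Col6a2 -/- male 4 (0.48, 0.0304). In males the 645 called genes became 313 without Col6a2 -/- male 1 and 1003 without Col6a2 -/- male 4. The female call of Tgfbr1 was lost without mitochondrial and Rn7s genes (0.52, adjusted p 0.0669) and in the fit on the compared groups alone (0.58, 0.212), and that of Eng in 6 of 13 alternatives. The female call of Tgfbr1 was also lost without WT female 1 or 3 or Col6a2 -/- female 1 or 2, with adjusted p of 0.0523 to 0.164. Without Col6a2 -/- female 2, which had 15.4 TPM, the change was 0.37. The female call of Eng was lost without WT female 1 or 2 or Col6a2 -/- female 1, 2 or 3, with changes of 0.38 to 0.45 and adjusted p of 0.0701 to 0.147. The male call of Tgfbr1 was lost without WT male 2 (0.63, adjusted p 0.0517) or Col6a2 -/- male 1 (0.56, 0.087). No member differed between the sexes in its genotype change at 5 weeks, also an added contrast (limma adjusted p 1 for each of the 10, and 0% of all genes called).

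Because Acvrl1 and Eng are known chiefly from endothelium, markers of the cell types in muscle were read beside them. Of 15 endothelial markers, 6 were called higher at 5 weeks, where 23.2% of all genes were, and 0 at 25 weeks by limma, with median changes of 0.27 and 0.10. Their summed level at 5 weeks was 104 to 134 TPM in WT females and 122 to 179 in WT males, against 123 to 180 and 161 to 198 in Col6a2 -/-. Eng at 5 weeks was 3.67% ± 0.373 of that sum in the WT and 4.15% ± 0.621 in the Col6a2 -/- mice (n = 8 each, SD), and Acvrl1 was 2.88% ± 0.558 and 3.52% ± 0.700, with overlapping ranges. Of macrophage markers, 10 of 10 were called higher at 5 weeks with a median of 1.22, and of fibroblast markers 7 of 12 with a median of 0.42. The macrophage sum at 5 weeks was 45.7 to 77.0 TPM in WT and 112 to 197 TPM in 7 Col6a2 -/- libraries, with 52.0 in female 4, whose Tgfbr1 and Eng also lay in the WT range. Col6a2 -/- male 4, whose Eng lay in the WT range and whose Tgfbr1 was the lowest of its group, had a macrophage sum of 135 TPM, above every WT library. At 25 weeks, 8 of 10 macrophage and 6 of 12 fibroblast markers were called higher, where 4.47% of all genes were. Among satellite cell markers 4 of the 5 tested, with a median of 0.47, and among markers of mural cells 2 of 8 were higher at 5 weeks, and 6 of 10 myofibre markers were lower with a median of -0.31, where 2.14% of all genes were lower. No marker was at 0 in all libraries. The part of these cell types in the receptor changes was not tested, and in whole muscle a larger share of a cell type and more RNA per cell cannot be told apart.

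Of the TGFβ ligands, 2 of 3 were called higher at 5 weeks and 0 at 25 weeks, where 23.2% and 4.47% of all genes were called higher. The 5-week count was 1 with at least 5 TPM, and quantile normalization called a ligand lower at both ages. Tgfb3 changed by 0.44 (SE 0.102 with adjusted p 0.00267 by limma) and Tgfb1 by 0.41 (SE 0.107, 0.00618), from 0.996 ± 0.379 to 1.67 ± 0.558 TPM (SD, n = 8). The lists of pathway genes given here were chosen with earlier results of these data known. Of 9 other receptors of the superfamily, none was called higher and 2 were called lower at 5 weeks, where 2.14% of all genes were lower. The number lower at 5 weeks was 4 with quantile normalization and 3 with median-of-ratios factors or without the 100 most abundant genes. It was 1 without a filter, with at least 5 TPM or with only the compared groups. At 25 weeks it was 2 rather than 0 with median-of-ratios factors, and 1 without the 100 most abundant genes, with quantile normalization or with array weights. The 2 called lower at 5 weeks were Acvr2b, a type II receptor for activin and myostatin (-0.43, SE 0.129, limma adjusted p 0.0171), and Acvr1b, a type I receptor for the same ligands (-0.35, SE 0.125, 0.0391). Acvr2b overlaps an antisense gene, and without stated strand use their reads cannot be told apart. Acvr1b had the same change, -0.35, at 25 weeks (0.103). It lost its 5-week call in 9 of 32 fits without 1 library (WT females 1 and 2, WT males 1, 2 and 4, Col6a2 -/- females 1 and 3 and males 1 and 2), with changes of -0.37 to -0.28, and also without a filter (adjusted p 0.0763) and in the fit on the compared groups alone (0.0779). Smad1 and Smad5, which ALK1 and the BMP receptors use, gave 0 calls at both ages, and Smad9 missed the filter. At 5 weeks both were called higher without Col6a2 -/- female 4, and 1 of them with array weights or without WT male 1 or Col6a2 -/- male 4. At 25 weeks 1 gene of this list was called higher without a filter or without the 100 most abundant genes.

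Among modulators of the pathway, 3 of 19 tested were called higher and 1 lower at 5 weeks, with a median change of 0.14 against 0.145 for all genes, of which 23.2% were called higher and 2.14% lower. With median-of-ratios factors 2 were higher and 4 lower, with at least 5 TPM 0 and 1, with only the compared groups 2 and 0, and without 5-week Col6a2 -/- female 4, 6 and 1. Tgif1, a repressor that binds Smads, had 0.749 to 2.07 TPM in WT and 1.84 to 4.97 in Col6a2 -/-, a log2 difference of 0.96 with SE 0.125 (adjusted p 2.4e-06 by limma). Nedd4l, a ubiquitin ligase that acts on activated Smads, changed by 0.65 (SE 0.128 with adjusted p 0.000466 by limma), and Pmepa1, a TGFβ-induced inhibitor of the pathway, by 0.41 (0.0220). Zfyve9, which encodes the anchor protein SARA that presents SMAD2 and SMAD3 to the receptor, fell by 0.29 (SE 0.0839 with adjusted p 0.0135 by limma), from 11.0 ± 0.893 to 8.94 ± 1.60 TPM in 8 of 8 libraries. In the fit on the compared groups alone Zfyve9 (-0.29, adjusted p 0.0619) and Pmepa1 (0.41, 0.0706) were not called. Pmepa1 also lost its call without WT female 1, Col6a2 -/- female 2 or 3 or Col6a2 -/- male 1 (0.32 to 0.37, adjusted p 0.0506 to 0.0722), and under the 3 scalings that lower the median. At 25 weeks 0 of the 19 were called, and 5 were called higher with array weights, 2 with only the compared groups, 1 without 5-week Col6a2 -/- females 2 and 4, and 1 lower with median-of-ratios factors.

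Of 13 transcription partners of Smads, 5 were called higher and 0 lower at 5 weeks, where 23.2% of all genes were called higher, and 1 at 25 weeks, where 4.47% were. The 5-week count was 1 with median-of-ratios factors or quantile normalization, 2 without the 100 most abundant genes, and 3 with at least 5 TPM, with only the compared groups or without 5-week WT female 1, WT male 2 or 3, Col6a2 -/- female 2 or Col6a2 -/- male 1 or 3. The 25-week count was 0 to 5 over the alternatives, with 5 under array weights, and 3 without Col6a2 -/- female 2 of 5 weeks. Runx1 changed most clearly, by 1.30 (SE 0.138 with adjusted p 9.0e-08 by limma) from 0.584 ± 0.268 to 3.05 ± 1.34 TPM, and by 0.62 (0.0091) at 25 weeks, where the genotypes did not overlap, as for 0.663% of all genes. Wwtr1, which encodes TAZ, changed by 0.47 (0.0117) and Foxo1 by 0.40 (0.0121) at 5 weeks, and neither was called under median-of-ratios scaling (adjusted p 0.0568 and 0.0957), without the 100 most abundant genes or with quantile normalization. Genes that TGFβ is known to induce were called higher in 7 of 16 at 5 weeks and 6 of 16 at 25 weeks, with 0 lower and medians of 0.44 and 0.61, against the same 23.2% and 4.47% of all genes. Cdkn1a, a cell cycle inhibitor, had 1.51 to 4.78 TPM in WT and 6.502 to 22.8 in Col6a2 -/- at 5 weeks, a log2 difference of 1.98 with SE 0.213 (adjusted p 1.1e-07 by limma) without overlap, as for 1.18% of all genes. Timp1 changed by 1.65 (limma adjusted p 3.5e-06) and Postn by 1.97 (2.1e-05) at 5 weeks, and at 25 weeks Col3a1 by 1.25 (0.00125), Postn by 1.499 (0.00363) and Fn1 by 1.35 (0.00626). Several of these matrix genes are also made by fibroblasts, whose markers were higher at both ages, and the part of that was not tested.

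Genes induced by BMP or ALK1 signalling were called higher in 4 of 7 tested at 5 weeks and in 1 of 7 at 25 weeks, with medians of 0.34 and 0.19, where 23.2% and 4.47% of all genes were called higher. The 5-week count was 1 with quantile normalization or without the 100 most abundant genes, and 2 with median-of-ratios factors, no filter, at least 5 TPM or without 5-week WT female 1 or Col6a2 -/- female 2 or 3. At 25 weeks, array weights called 1 gene of this list higher and 1 lower. Id2, which encodes an inhibitor of basic helix-loop-helix factors, changed by 0.91 (SE 0.195 with adjusted p 0.00118 by limma) at 5 weeks and 0.23 (0.557) at 25 weeks. Id3 changed by 0.43 (0.0240) and 0.51 (0.0307), from 9.40 ± 1.69 to 13.2 ± 3.17 TPM at 5 weeks, and Bmper, which encodes a BMP-binding protein of endothelium, by 0.34 (0.0169) at 5 weeks. Id3 lost its 5-week call without WT female 1 or Col6a2 -/- female 2 or 3 (0.36 to 0.39, adjusted p 0.0583 to 0.0601) and its 25-week call in 9 of 32 fits (0.46 to 0.51, 0.0560 to 0.0831), which left out WT females 1, 2 or 4, WT males 1 or 3, Col6a2 -/- female 1 or Col6a2 -/- males 1, 3 or 4. Bmper lost its call without Col6a2 -/- female 2 (0.29, adjusted p 0.0501), with quantile normalization (0.16, 0.18), without the 100 most abundant genes (0.36, 0.0561) and without 5-week Col6a2 -/- females 2 and 4 together (0.28, 0.0635). At 5 weeks Id3 was not called with median-of-ratios factors (0.29, adjusted p 0.138), quantile normalization (0.28, 0.142), array weights (0.31, 0.0986), no filter (0.43, 0.0504) or without the 100 most abundant genes (0.33, 0.137). At 25 weeks Id3 was not called without a filter (adjusted p 0.0844), without mitochondrial and Rn7s genes (0.054) or with quantile normalization (0.0551).

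The genes most like the 3 called receptors over the 32 libraries were found by Pearson correlation of log2(TPM + 1) among 12807 other genes. For Tgfbr1 they were Tnfrsf23 (r 0.95, Spearman rho 0.90) and Rpl11 (0.94 and 0.90). For Acvrl1 they were Pnp2 (0.87 and 0.87) and Ifngr1 (0.84 and 0.79), and for Eng they were Grk5 (0.90 and 0.87) and Cmip (0.89 and 0.85). The points share the libraries, their scaling and the groups, so these values describe likeness only. The pattern of Tgfbr1 differs from that of its nearest genes in size: Tnfrsf23 changed by 1.08 and Rpl11 by 0.37 at 5 weeks, and by 0.12 and 0.11 at 25 weeks.

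Overlapping genes limit some values, since strand use is not given in the sources used here. Acvrl1 has the antisense gene Gm16031, listed at 0 in all 32 libraries. Tgfbr3 overlaps 4 genes. Gm43422, Gm43423 and Gm42900 lie on its own strand, at or below 0.590 TPM in every library. The pseudogene Gm8145 lies on the other strand and was at 0 in all 32. Inside Eng lie Mir1954, Gm47291 and Gm26236 on its own strand, at or below 0.777 TPM. The last 61 bases of Eng overlap Fpgs on the other strand, which had 0.846 to 2.47 TPM and a change of 0.11 (limma adjusted p 0.462) at 5 weeks. Smad2 (chr18:76241580-76305731), Smad3 (chr9:63646767-63757994), Smad4 (chr18:73639009-73703780), Smad6 (chr9:63953076-64022059) and Smad7 (chr18:75367529-75395935) had no such neighbour on the other strand but a pseudogene inside Smad4, whose values were not used here. The start and end of Smad2 in the tables differ from those in GENCODE M21, and those of the other 9 members are the same.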

How the data were processed

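Quadriceps RNA of 32 mice was measured, 1 library per mouse. Each deposited file gives a single library with TPM, FPKM and coverage per gene, per the file headers. The TPM values, scaled for length and to a fixed total, and the FPKM values, scaled for length and depth, were computed by the authors. The coverage signal, also deposited, was used only with FPKM for relative depth, since read counts were not used here. FastQC, MultiQC, Trimmomatic, HISAT2, SAMtools and StringTie and the builds GRCm38 and mm10 are named, without versions, in the submitters' processing notes. Annotation and strand use are not given in the sources used here.

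TPM was summed per gene ID and put on the log2(TPM + 1) scale, and the 12817 genes that reached 1 TPM in 4 or more libraries were kept. One limma 3.58.1 model (R 4.3.3, eBayes with trend) with a mean for each of 8 groups was fitted to all 32 libraries, with 11 two-sided contrasts and Benjamini-Hochberg adjustment within each contrast. The genotype contrasts by sex within each age were 2 additions. Genes with an adjusted p under 0.05 are called. Col6a2 was compared by exact permutation. Other steps used Python 3.11.15, numpy 2.4.6, pandas 2.3.3 and matplotlib 3.10.9. In simulated data for genotype at 5 weeks (12817 genes), 100 genes were changed by 0.5 and 100 by 1. Noise was drawn independently for each gene and library, without differences that many genes of a library share. The fit called 74% and 97% of the changed genes, with 8 false calls. The real libraries do share such differences, so these rates do not carry over to them.

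All 10 members are named. From the pathway lists, at most 3 called genes per list, direction and age are named, by smallest p, and the 2 most correlated genes for each called member. Members and lists were chosen with earlier results of these data known. Alternatives covered the pseudocount, the filter, 4 scalings, FPKM, array weights, the trend, a replicate block, fits on the compared groups alone and each library left out. No 2 libraries held identical values (highest correlation 0.984).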

Additional observations from a re-analysis of the deposited data

Results flagged for a closer look

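In each group of 4 libraries, the highest and lowest value of each gene was compared with the rest by Dixon's criterion. Of 80 groups tested, 5 held a library that stood apart, and chance flags about 1 in 20 groups, so this is near what chance gives. All 5 were at 25 weeks and were the highest of their group. Tgfbr2 was 7.23 TPM in WT male 4, with 4.58 to 4.84 in the other 3. Smad3 was 13.008 TPM in WT female 3, with 10.6 to 10.8 in the others, and 12.3 TPM in Col6a2 -/- female 3, with 9.86 to 10.1. Smad4 was 10.0 TPM in WT male 2, with 9.16 to 9.26 in the others, and 10.2 TPM in Col6a2 -/- female 4, with 9.21 to 9.35.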

How the results depend on the processing

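The number of members called for genotype at 5 weeks was 3, and it was 5 with array weights, 4 without mitochondrial and Rn7s genes, 4 without 5-week Col6a2 -/- females 2 and 4 and 3 in the other 10 alternatives, with 3 to 6 when 1 library was left out. At 25 weeks it was 0, and it was 1 with log2(TPM + 0.1), 3 with array weights, 2 with only the compared groups, 2 without 5-week Col6a2 -/- females 2 and 4 (an alternative chosen after seeing the data), and 0 to 2 without 1 library. For 5-week females the 2 calls became 1 without a filter, 1 with median-of-ratios factors, 1 without the 100 most abundant genes, 1 with quantile normalization, 0 without mitochondrial and Rn7s genes, 0 with only the compared groups and 4 with array weights, and 0 to 4 without 1 library. For 5-week males the 1 call became 3 without mitochondrial and Rn7s genes (0 to 2 without 1 library). For 25-week males the 1 call became 0 without a filter, without mitochondrial and Rn7s genes or with quantile normalization, and 3 with array weights (0 to 2 without 1 library). For 25-week females, genotype by sex and sex the count was 0 in all alternatives, and the count without 1 library was 0 to 0. Genotype by age gave 1 rather than 0 with median-of-ratios factors, without the 100 most abundant genes, with quantile normalization and with array weights (0 to 1 without 1 library). Age in WT gave 2, 1, 2, 3, 1 and 1 rather than 0 with median-of-ratios factors, without mitochondrial and Rn7s genes, without the 100 most abundant genes, with quantile normalization, with log2(FPKM + 1) and with array weights. Age in Col6a2 -/- gave 1 rather than 2 with at least 5 TPM, where Smad7 was not tested, 4 with array weights and 1 with only the compared groups (1 to 4 without 1 library). Quantile normalization called Smad6 there as well (0.23, limma adjusted p 0.0413). The cause of these shifts was not tested.

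Changes that reversed sign at 5 weeks were Smad2 (-0.013), Smad3 (-0.098) and Smad4 (-0.055) with median-of-ratios factors, Smad3 (-0.084) and Smad4 (-0.041) without the 100 most abundant genes, Smad2 (-0.073), Smad3 (-0.108), Smad4 (-0.068), Smad6 (-0.081) and Smad7 (-0.024) with quantile normalization, and Smad3 with array weights (-0.003) or without WT male 3 (-0.012 to 0.121 over all fits without 1 library). At 25 weeks Tgfbr1 reversed with median-of-ratios factors (-0.012) and quantile normalization (-0.022), and Smad6, at -0.003, with log2(TPM + 0.1) (0.011) and in 9 fits without 1 library (-0.049 to 0.049 over all such fits). The number of all genes called for genotype at 5 weeks, 3253, was 1553 with at least 5 TPM and 1907 with only the compared groups, and 2207 (without Col6a2 -/- male 1) to 4749 without 1 library. At 25 weeks, 603 became 343 without a filter, 344 with at least 5 TPM, 1188 with median-of-ratios factors, 1282 without the 100 most abundant genes, 1967 with array weights, 1177 with only the compared groups and 1233 without 5-week females 2 and 4, and 270 (without Col6a2 -/- male 1) to 983 without 1 library. For 5-week females, 1648 became 722 with at least 5 TPM, 1012 without mitochondrial and Rn7s genes, 2879 with array weights and 104 with only the compared groups. For 5-week males, 645 became 295 with at least 5 TPM and 1087 to 1446 with median-of-ratios factors, quantile normalization, array weights, without mitochondrial and Rn7s genes, without the 100 most abundant genes or without females 2 and 4. For 25-week males, 388 became 133 without a filter, 251 with at least 5 TPM, 736 with log2(TPM + 0.1), 798 with median-of-ratios factors, 906 without the 100 most abundant genes, 645 with only the compared groups, 1130 without 5-week females 2 and 4 and 2437 with array weights. For genotype by age, 63 became 32 with at least 5 TPM and 103 to 241 in 7 other alternatives. For age, 2536 in WT became 1441 with at least 5 TPM, 4167 without the 100 most abundant genes and 4166 with array weights, and 4389 in Col6a2 -/- became 2263 with at least 5 TPM. For sex, 391 became 258 with at least 5 TPM and 661 to 925 with median-of-ratios factors, quantile normalization, array weights, without mitochondrial and Rn7s genes or without the 100 most abundant genes. Without 1 library it ranged from 327 (without 5-week Col6a2 -/- male 3) to 693 (without 5-week Col6a2 -/- female 2). For 25-week females the 1 gene became up to 33 with array weights, and for genotype by sex the 2 genes became 0 with array weights to 5 without a filter.

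Replicate numbers did not meet the criterion for pairing, a correlation over 0.1 in every pair. Deviations of same-numbered libraries correlated at a mean of 0.03 (others -0.01), 8 of 16 pairs exceeded 0.1, and 14 of 32 libraries correlated best with their own number. With the replicate block, 1 member (Acvrl1) was called at 25 weeks, and Acvrl1 was called in 5-week females (adjusted p 0.0365). Read counts were not used, so the precision that depth gives was not computed.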
